A study of Mus musculus with 4 samples.

Results

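The HoxA cluster of the mouse lies on chromosome 6, and 10 of its protein-coding genes were examined, Hoxa2, Hoxa3, Hoxa4, Hoxa5, Hoxa6, Hoxa7, Hoxa9, Hoxa10, Hoxa11 and Hoxa13, of 21938 protein-coding genes in the annotation. Binding was described over the cluster, chr6:52162417-52260880 in mm10, and over 200 kb to either side. CTCF and RAD21 had been measured by ChIPmentation, chromatin immunoprecipitation in which a transposase adds the sequencing adapters, in whole limbs of E12.5 embryos of strain B6CBAF1. These embryos were TgN(38-40)/Wt; del(CS38-40)-/-: they carried an ectopic fosmid with region CS38-40 of the HoxD locus on 1 copy of chromosome 10 and lacked that region on both copies of chromosome 2, so that neither change lies on the chromosome of HoxA. Each antibody had 2 biological replicates, and wild type was represented by a single RAD21 ChIP-seq list from E12.5 whole limbs, which the same group had made before. Input DNA, from TgN(38-40) limbs and from limbs wild-type on region CS38-40, came without peaks and entered no comparison.

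Hox genes encode transcription factors that pattern the body axis and the limbs, and their order along the chromosome follows the order of their expression domains, a property called collinearity. In the limb bud, Hoxa9, Hoxa10 and Hoxa11 act in the proximal and middle segments, and Hoxa13 in the digits and wrist. All members are transcribed toward Hoxa2, and enhancers for digit expression lie on the side of Hoxa13, around and beyond Evx1. CTCF binds a long, asymmetric DNA motif, and cohesin, of which RAD21 is a subunit, extrudes chromatin loops until it meets CTCF, preferentially where its motif points into the loop. In motor neurons derived from mouse embryonic stem cells, a CTCF site between Hoxa5 and Hoxa6 separates active from repressed chromatin of the cluster.

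The lists held 12 sites in the window of 498464 bp, of 33037 sites on the assembled chromosomes, where a site is a set of peaks from any of the 5 lists that overlap by at least 1 bp. Inside the cluster lay 6 of them, each in a different interval between the coding regions of neighbouring genes, after which they are named here. The other 6 were 3 sites in introns of Skap2, numbered from the left, 1 intergenic site to the left of the cluster and 2 to its right. CTCF had a peak at 9 of the 12 sites, 5 of them inside the cluster. The whole segment from the left flank site to the site between Hoxa4 and Hoxa5 had no peak in any list, so all peaks inside the cluster lay between Hoxa4 and Hoxa13.

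The best match to the CTCF motif within 50 bp of a CTCF summit, or of a RAD21 summit where a site has no CTCF peak, is printed for every site, since its letters and its strand carry the pattern described here. The model of 19 positions, learned from these data, has the consensus nnnCCacnAGggGGCgcnn, in which capitals mark the 7 most fixed positions. Each match is written 5′ to 3′ on its own strand, with the same 7 positions in capitals, and was read from GRCm38 (mm10). Plus means that the motif reads toward Evx1 and minus that it reads toward Skap2. The score sums the log2 ratio of each letter's frequency to that of the background, and 6.15 was taken as the threshold, the score that 5% of sequences 500 bp away from the summits reached.
Skap2 1, minus, score -5.75, chr6:51998634-51998652: agcCCtggGGagGAAagat
Skap2 2, plus, score 13.13, chr6:52002928-52002946: ctcTCagcAGggGGAgcta
Skap2 3, plus, score 12.1, chr6:52008972-52008990: gacTCagtAGgtGGCactc
left flank, minus, score 10.51, chr6:52045749-52045767: cggCCaggTGtgGGCgctg
Hoxa4-Hoxa5, minus, score 4.28, chr6:52197462-52197480: tcgCCagcAGagCTCgctt
Hoxa5-Hoxa6, minus, score 16.27, chr6:52204655-52204673: tctCCagcGGgtGGCgctc
Hoxa6-Hoxa7, plus, score 4.71, chr6:52211721-52211739: cggCCacaGCgtGGCagca
Hoxa7-Hoxa9, minus, score 13.3, chr6:52221805-52221823: attCCaggAGatGGCagtg
Hoxa10-Hoxa11, minus, score 17.22, chr6:52240537-52240555: ccgCCacgAGatGGCgcac
Hoxa11-Hoxa13, plus, score 15.64, chr6:52257118-52257136: tcaACacgAGgtGGCgccc
right flank 1, plus, score 5.23, chr6:52270699-52270717: tccCCactAGatGTCttcc
right flank 2, plus, score 11.9, chr6:52306049-52306067: tcgGCagtGGggGGCgcac

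**Figure D1:**
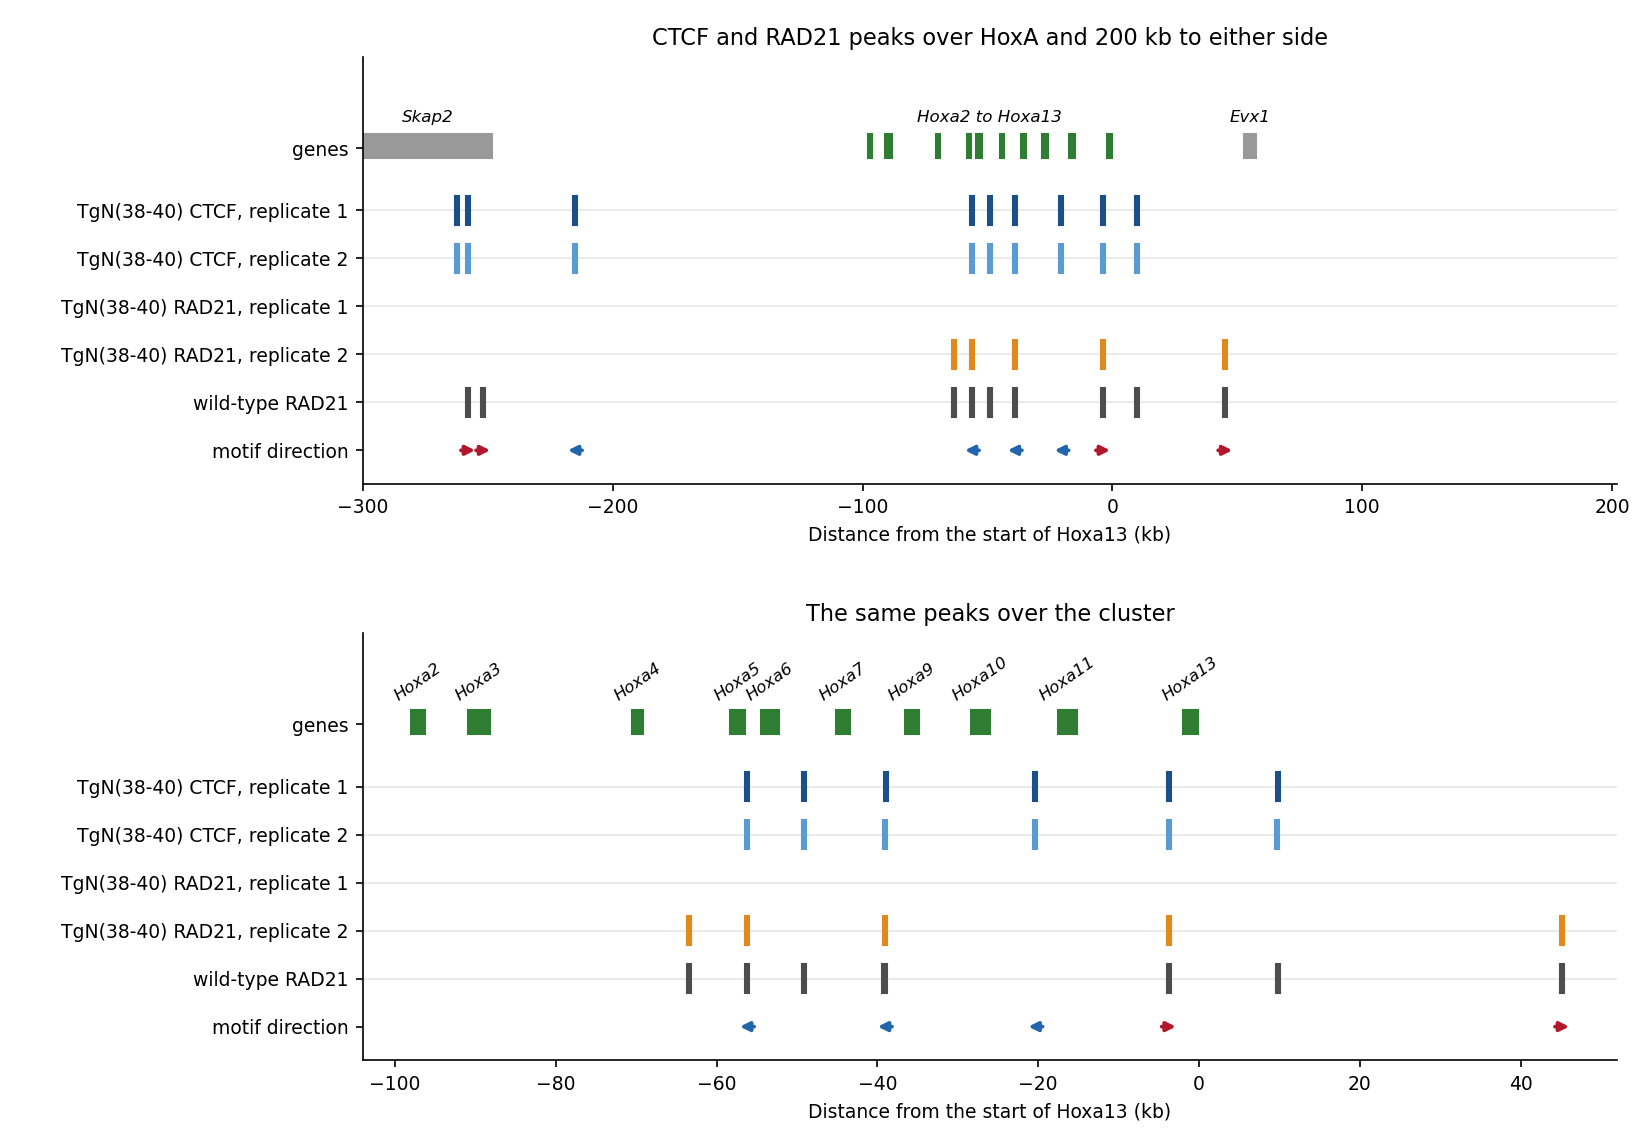
Peaks (boxes, widened so as to be visible), coding regions of the HoxA members (green) and motif directions (arrows, plus pointing right and minus left, for matches at or above the threshold) against the distance from the start of Hoxa13 in kb, for the whole window and for the cluster. The TgN(38-40) lists stand above the wild-type one, RAD21 replicate 1 has no box, and Hoxa2, Hoxa3 and Hoxa4 have no CTCF box near their coding regions.

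Among the 9 CTCF sites, 6 held a match above this threshold, against 74.5% of all CTCF sites of the genome. The 4 intervals Hoxa5-Hoxa6, Hoxa7-Hoxa9, Hoxa10-Hoxa11 and Hoxa11-Hoxa13 each had one. The first 3 of these read on the minus strand and the fourth, next to Hoxa13, on the plus strand, so that the motifs of Hoxa10-Hoxa11 and Hoxa11-Hoxa13 point away from each other on either side of Hoxa11. Over all CTCF sites of the window the motif lay on the plus strand at 2 of 6 and on the minus strand at 4, against 50.4% plus in the genome. To the right of Hoxa13, the motif of right flank 2, a site with RAD21 but no CTCF peak, also read on the plus strand. The next 2 sites beyond the window lay in the Hibadh gene, 116.4 and 140.3 kb from the edge of the window. Both read on the minus strand, facing right flank 2. The nearer had a CTCF peak in replicate 2 alone and the farther in both replicates.

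The match between Hoxa10 and Hoxa11 kept all 7 fixed positions and 11 of the 13 positions that the consensus specifies, and scored at or above 64.3% of all CTCF sites. That between Hoxa7 and Hoxa9 also kept all 7 fixed positions but only 8 of 13, scoring at or above 40.9%. The matches of Hoxa5-Hoxa6 and Hoxa11-Hoxa13 each lacked 1 of the fixed letters and stood at or above 57.6% and 53.7% of CTCF sites. The motifs of the cluster were thus of middling score, and no site of the window exceeded the score of Hoxa10-Hoxa11. The letters CG occurred 3 times in that motif, and 2 times each in those of Hoxa5-Hoxa6 and Hoxa11-Hoxa13.

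**Figure D2:**
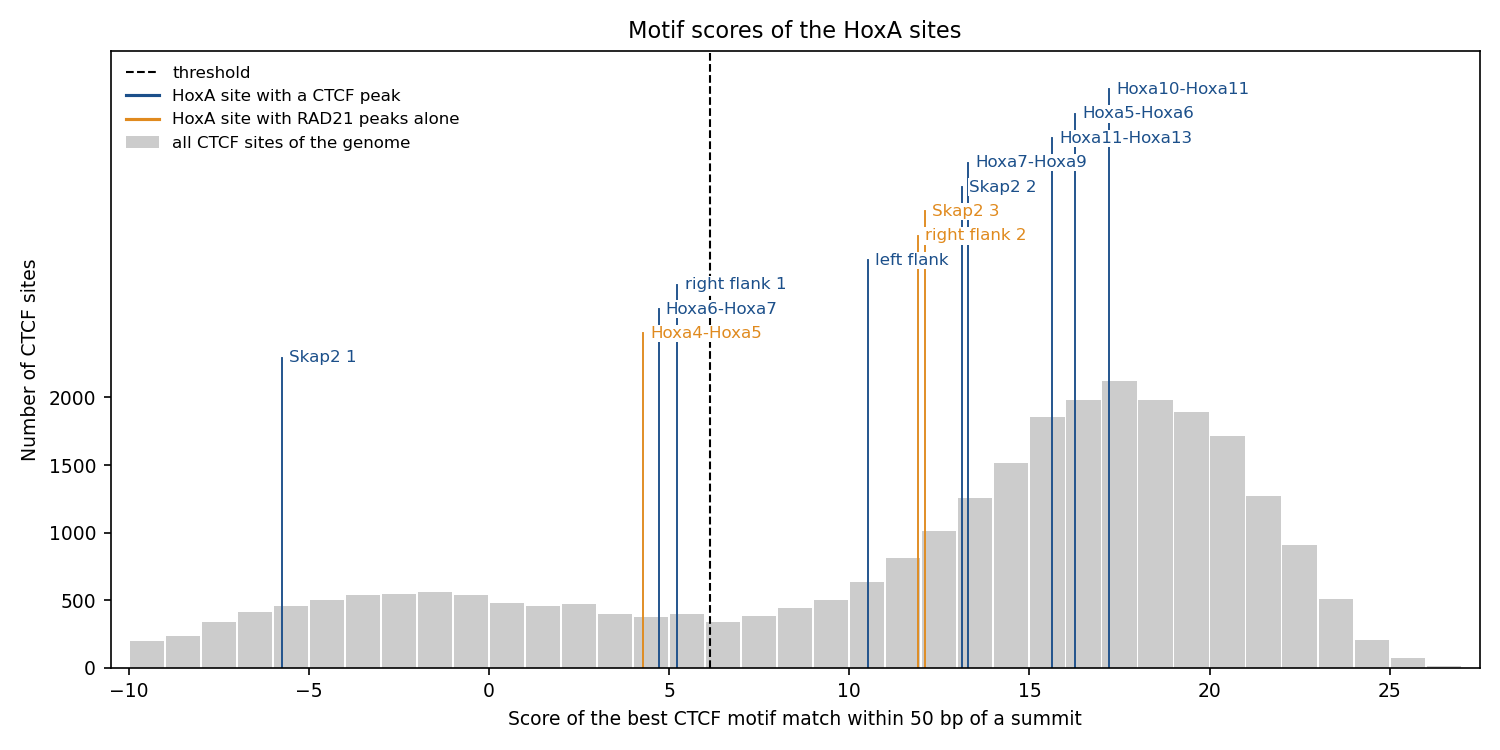
Score of the best motif match at each HoxA site (lines, blue with a CTCF peak and orange with RAD21 peaks alone) over the number of CTCF sites of the genome per unit of score (grey bars; 362 of 28683 sites score below the axis). The matches of 4 intervals of the cluster lie between 13.3 and 17.22, and those of Hoxa4-Hoxa5 and Hoxa6-Hoxa7 lie left of the dashed threshold.

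The site between Hoxa5 and Hoxa6, chr6:52204438-52204882, covers the start of Hoxa5, a gene needed for lung development, and part of its untranslated first exon, and lies in introns of the long Hoxa3 transcript and of the non-coding genes Hoxaas3 and Gm28308. Its CTCF fold enrichment, the pileup at the summit over the local expectation, was 8.28 in replicate 1 and 7.90 in replicate 2. As folds cannot be compared between lists, the share of a list's peaks at or below the fold is used as its percentile, which was 79.7 in replicate 1 and 53.4 in replicate 2. A percentile places a peak within its own list. The lists differ in length, so percentiles of different lists are not strictly comparable either. The RAD21 fold was 7.37 in replicate 2 of TgN(38-40) limbs, percentile 50.9, and 6.93 in the wild-type list, percentile 77.7. The site was thus called in every list but RAD21 replicate 1, which had no peak in the whole window.

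A second minus strand match lay 117 bp to the left of the printed one, inside the untranslated exon of Hoxa5, with a score of 10.28:
Hoxa5-Hoxa6, second match, chr6:52204538-52204556: ttaCCtctAGagGTCatca
The summits of the 2 CTCF replicates were 90 bp apart at this site. That of replicate 2 lay 16 bp from the stronger match, and that of replicate 1 lay 106 bp from it, on the side of the second match. The summit of RAD21 lay 68 bp from the stronger match in TgN(38-40) limbs and 30 bp from it in wild-type limbs. The site also held weaker plus strand matches above the threshold. One, of score 7.51 at chr6:52204541-52204559, overlapped the second match, and another, of score 6.74, lay at chr6:52204623-52204641. Which of the matches was bound was not tested.

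The site between Hoxa7 and Hoxa9, chr6:52221484-52222145, overlaps an untranslated exon of Hoxa7, which acts in the trunk, and was the widest of the window at 662 bp. Its CTCF fold was 14.6 in replicate 2, rank 539 of 26264 and percentile 98.0, but 7.06 in replicate 1, percentile 60.3. RAD21 had a fold of 8.48 in replicate 2 of TgN(38-40) limbs, percentile 66.6, and 10.4 in wild-type limbs, rank 408 of 20874 and percentile 98.1. It held the strongest peak of the window in CTCF replicate 2 and in wild-type RAD21. In CTCF replicate 1 it ranked below Hoxa6-Hoxa7, Hoxa5-Hoxa6 and Hoxa10-Hoxa11, and the 2 CTCF summits were 108 bp apart. That of replicate 2 lay 8 bp from the motif.

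The site between Hoxa10 and Hoxa11, chr6:52240298-52240701, lies on an untranslated exon of a longer Hoxa10 transcript, 5359 bp from the start of the principal one. Its CTCF fold was 7.57 in replicate 1, percentile 69.4, and 13.0 in replicate 2, rank 1491 and percentile 94.3. The summits of both replicates lay within 17 bp of the motif, the best of the window. RAD21 had no peak here in any list, neither in TgN(38-40) nor in wild-type limbs. Of the 1488 sites of the genome with at least this fold in CTCF replicate 2, 10.9% likewise had no RAD21 peak in any list.

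The site between Hoxa11 and Hoxa13, chr6:52256942-52257366, lies on an exon of the non-coding gene 9530018H14Rik, 3514 bp from the start of Hoxa13. The CTCF fold was 4.99 in replicate 1, percentile 16.1 by fold and 27.8 when peaks were ranked by −log10 p, and 7.71 in replicate 2, percentile 51.0, the middle of its list. RAD21 had no peak in replicate 1, a fold of 9.59 in replicate 2 of TgN(38-40) limbs, percentile 78.1, and one of 7.23 in wild-type limbs, percentile 80.4. It was the strongest RAD21 site of the window in replicate 2 of TgN(38-40) limbs. All 4 summits lay between 15 and 20 bp from the motif, with the 2 CTCF summits 1 bp apart. Hoxa10-Hoxa11 and Hoxa11-Hoxa13, the neighbours whose motifs diverge, thus differed in both antibodies: Hoxa10-Hoxa11 was higher in each CTCF list, and of the pair only Hoxa11-Hoxa13 had RAD21 peaks, in replicate 2 and in wild type.

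The site between Hoxa6 and Hoxa7, chr6:52211522-52211890, lies in introns of the long Hoxa3 transcript, Hoxaas3 and Gm28308, 1225 bp from the start of that Hoxa3 transcript. Its CTCF fold was 8.67 in replicate 1, percentile 84.3, and 8.50 in replicate 2, percentile 60.8. By fold it was the highest of the window in replicate 1, but ranked by −log10 p it stood at 86.3 there, below Hoxa5-Hoxa6 at 89.5. RAD21 was not called in TgN(38-40) limbs and was called at a fold of 3.08 in wild-type limbs, percentile 21.2, the lowest of the window there. No match reached the threshold, although CTCF was called in both replicates, and 27 CG dinucleotides lay in its 369 bp.

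The site between Hoxa4 and Hoxa5, chr6:52197299-52197636, was the only site of the cluster with RAD21 and no CTCF peak. RAD21 had a fold of 6.83 in replicate 2 of TgN(38-40) limbs, percentile 42.6, and 4.34 in wild-type limbs, percentile 46.7. Its best match fell short of the threshold and kept 5 of the 7 fixed positions. Right flank 2, chr6:52305867-52306318, between Hoxa13 and Evx1, a homeobox gene next to the cluster, was the other such site of TgN(38-40) limbs, with a RAD21 fold of 6.07 in replicate 2, percentile 29.2, and 6.29 in wild-type limbs, percentile 71.0. Unlike Hoxa4-Hoxa5, it held a motif above the threshold. Among sites of the genome with RAD21 in both of these lists and no CTCF peak, 81.3% held one.

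**Figure D3:**
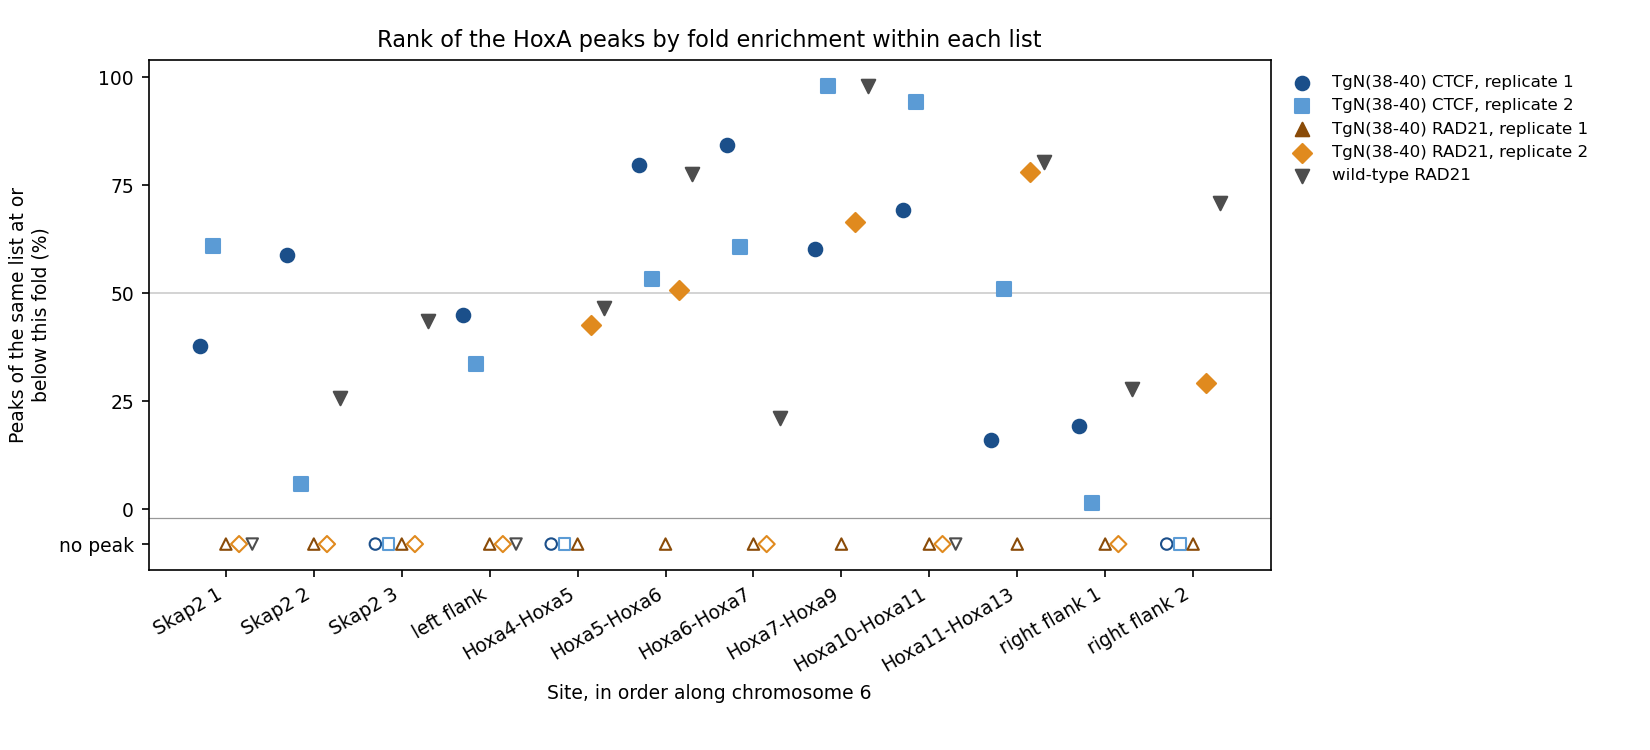
Percentile of each HoxA peak by fold within its own list, in % of that list's peaks, for the 12 sites in order along chromosome 6; open symbols mark a list with no peak. Hoxa7-Hoxa9 reaches 98.0 in CTCF replicate 2 and 98.1 in wild-type RAD21, Hoxa10-Hoxa11 has CTCF symbols alone, and RAD21 replicate 1 is open at every site.

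To the left of the cluster, CTCF had peaks at Skap2 1, Skap2 2 and left flank. Skap2 encodes a cytoplasmic adaptor protein. At Skap2 1 the folds were 5.95 and 8.52 in replicates 1 and 2, percentiles 37.8 and 61.0, with no motif and no RAD21. At Skap2 2 they were 6.96 and 4.76, percentiles 58.8 and 5.91, so that the replicates ranked these neighbours in opposite order. Skap2 2 also had RAD21 in the wild-type list, at a fold of 3.26 and percentile 25.7, and Skap2 3 had wild-type RAD21 alone, at a fold of 4.15 and percentile 43.7. Left flank had CTCF folds of 6.26 and 6.50, percentiles 45.0 and 33.6, and no RAD21 in any list. None of these sites had RAD21 in TgN(38-40) limbs.

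Right flank 1, chr6:52270550-52270885, beyond the non-coding gene Hottip, was the weakest site of the window in CTCF replicate 2, with a fold of 4.17, percentile 1.39, beside 5.10 in replicate 1, percentile 19.3. The peaks of the 2 CTCF replicates did not overlap each other and had summits 108 bp apart, being joined to 1 site by a wild-type RAD21 peak of fold 3.36, percentile 27.8. Left flank, Skap2 1 and Hoxa11-Hoxa13, by contrast, had CTCF summits within 5 bp of each other.

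Both CTCF replicates had a peak at 9 of 9 CTCF sites, against 73.3% of CTCF sites in the genome. Without right flank 1, where the 2 peaks only share a site, the replicates overlapped directly at 8. A RAD21 peak of TgN(38-40) limbs lay on 3 of the 9, Hoxa5-Hoxa6, Hoxa7-Hoxa9 and Hoxa11-Hoxa13, against 47.0% of CTCF sites in the genome. RAD21 replicate 1 lay on 0 of 9, against 13.5% in the genome. Its list of 4102 peaks was shorter than the 14787 of replicate 2, and all RAD21 sites of TgN(38-40) limbs described here thus rest on replicate 2. A wild-type RAD21 peak lay on 6 of the 9, against 58.6%, and 3, Skap2 1, left flank and Hoxa10-Hoxa11, had no RAD21 in any list, against 39.4%. With this few sites, these shares allow no firm comparison with the genome.

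TgN(38-40) limbs had RAD21 at 5 sites of the window and wild-type limbs at 9. All 5 sites of TgN(38-40) limbs had a wild-type peak, against 93.4% of such sites in the genome, and 5 of the 9 wild-type sites had a TgN(38-40) peak, against 67.0%. The other 4, Skap2 2, Skap2 3, Hoxa6-Hoxa7 and right flank 1, had wild-type percentiles between 21.2 and 43.7. The 5 shared ones lay between 46.7 and 98.1. How shared and unshared wild-type sites rank over the genome was not examined, so this cannot be called a trait of HoxA. Replicate 1 had a peak at 0 of the 5 sites with RAD21 in replicate 2 and in wild type, against 28.0% of such sites. A CTCF peak of TgN(38-40) limbs was missing at 2 of the 5 RAD21 sites of the same limbs, against 9.5%. It was missing at 3 of the 9 wild-type RAD21 sites, against 19.1%, and no wild-type CTCF list was used. Genotype, library method and list length differ together between these RAD21 lists and cannot be told apart.

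Of the 9 intervals between neighbouring coding regions, 5 held a CTCF site, but the share over intervals between other genes was not taken. The interval Hoxa4-Hoxa5 held RAD21 alone, and Hoxa2-Hoxa3, Hoxa3-Hoxa4 and Hoxa9-Hoxa10 held no peak in any list. Hoxa5-Hoxa6, at 2017 bp, was the shortest of the 9 and held a site, whereas Hoxa3-Hoxa4, at 17695 bp, was the longest and held none. No peak of any list lay on the coding region of a member, but the share over all protein-coding genes was not taken. The 5 CTCF sites within the 98464 bp of the cluster compare with a median of 1 in autosomal windows of that length, of which 4.25% held as many or more. These windows were not matched to the cluster in gene density, so the sets are unlike.

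CTCF had a site within 5 kb of the start of 5 of the 10 members, against 25.5% of protein-coding genes. For Hoxa5 the site covered the start, and for Hoxa3, Hoxa6, Hoxa13 and Hoxa7 it lay 1225, 2800, 3514 and 3979 bp away. Hoxa11, Hoxa9 and Hoxa10 fell just outside, at 5109, 5225 and 5359 bp. These distances hold for the start of the principal transcript alone. The annotated body of Hoxa10 reaches to 52240854, beyond the Hoxa10-Hoxa11 site, and that of Hoxa7 to 52221854, inside the Hoxa7-Hoxa9 site. Starts of other transcripts were not counted. The start of Hoxa3 is that of its long transcript, which begins between Hoxa6 and Hoxa7, and its start codon lay 31789 bp from the nearest CTCF site. Hoxa4, which patterns neck vertebrae, and Hoxa2, which patterns the hindbrain and the branchial region, were the farthest, at 12685 and 39607 bp. The nearest RAD21 site of TgN(38-40) limbs lay at 12794 bp for Hoxa10 and 11132 bp for Hoxa11, the same distances as in wild-type limbs, since the CTCF site between them had no RAD21. The starts share sites and neighbours, so that these are not independent observations.

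**Figure D4:**
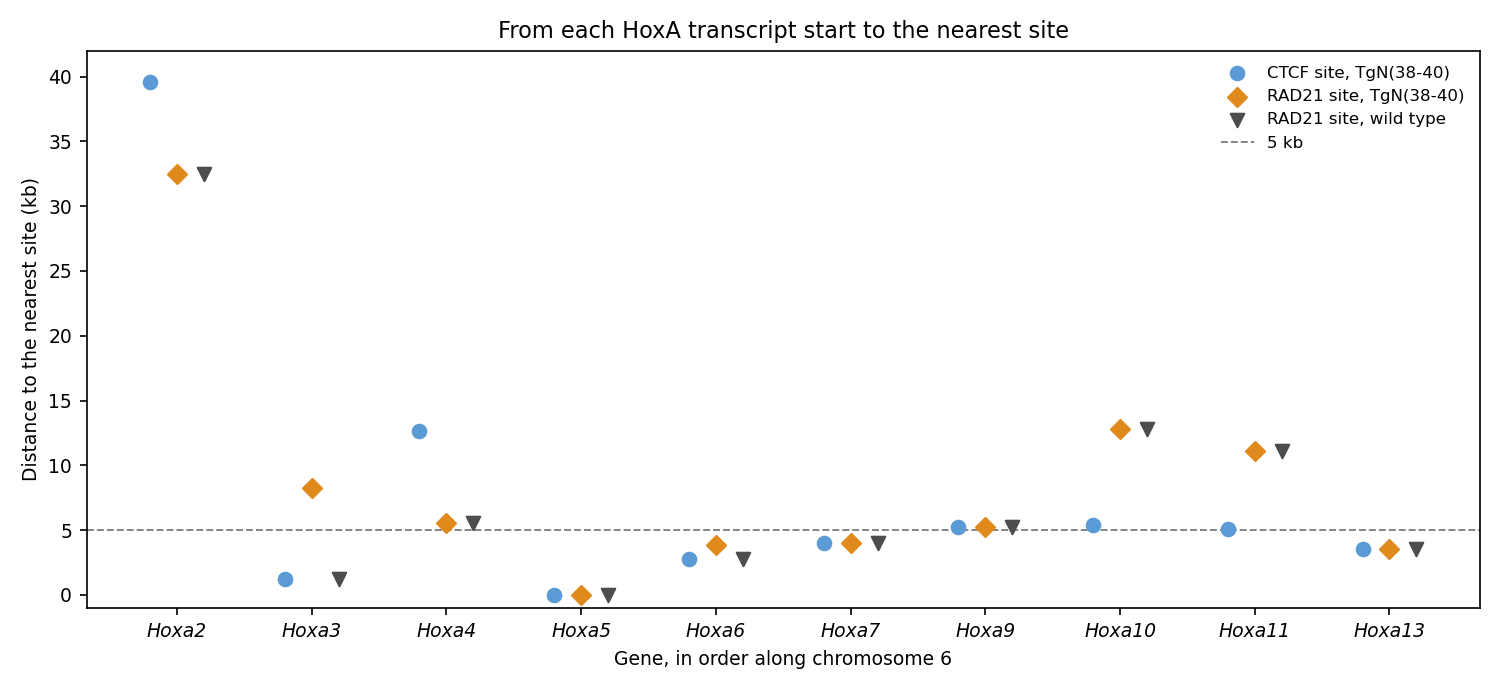
Distance in kb from the transcript start of each HoxA member, in order along the chromosome, to the nearest CTCF site and RAD21 site of TgN(38-40) limbs and RAD21 site of wild-type limbs; the dashed line is at 5 kb. Hoxa2 lies farthest from both factors, Hoxa5 has all 3 symbols at 0, and Hoxa10 and Hoxa11 lie 12794 and 11132 bp from RAD21.

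The segment without any peak to the left of Hoxa5 ran for 151429 bp, from left flank to Hoxa4-Hoxa5, past the non-coding genes Halr1 and Hotairm1, and over Hoxa2, the coding region of Hoxa3, and Hoxa4. Of all gaps between neighbouring sites, 11.8% were at least as long. On the side of Hoxa13, the 270996 bp between right flank 2 and the first Hibadh site had no peak and contained Evx1, a length that 5.18% of gaps reached. The median gap in the genome was 29721 bp. Binding below the threshold of a list leaves no peak in it, and the depth of the libraries is unknown, so that weak binding in these segments may have gone undetected.

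Strong matches to the motif, with a score of at least 13.86, occurred 10 times in the window. Inside the cluster all 3 of them, at Hoxa5-Hoxa6, Hoxa10-Hoxa11 and Hoxa11-Hoxa13, lay on a site, whereas the 7 in the flanks had no peak in any list, and 6 of those 7 lay wholly in soft-masked repeats. On chromosome 6 as a whole, 32.8% of such matches lay on a site. That share was not split by repeats, whereas the 3 matches inside the cluster held no soft-masked base, so the sets are unlike. The segment from left flank to Hoxa4-Hoxa5 held 2 of the 7, both to the left of Hoxa2. Reads from repeats may not map uniquely, and how far this bears on the missing peaks was not tested.

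As a comparison outside the cluster, the TALE homeodomain proteins of the Meis, Pbx and Pknox families, which bind DNA together with Hox proteins, are encoded by 9 genes. CTCF had a site within 5 kb of the start of 2 of them, Meis3 and Pknox2, a share near the 25.5% of all protein-coding genes. RAD21 had one at Pbx3 and Pknox2 in TgN(38-40) limbs and at 0 of the 9 in wild-type limbs. For RAD21 the share over all protein-coding genes was not taken, and the lists differ in library method and length as well as genotype. These RAD21 counts therefore allow no comparison between genotypes or with other genes.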

How the data were processed

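Reads were mapped to mm10 by the authors, who ran MACS2 on every replicate by itself. MACS2 2.1.1.20160309, Bowtie2 2.3.4.1 and cutadapt 1.16 are among the tools in the submitters' processing notes. The deposited values of a peak are its fold enrichment, which is a ratio to the local expectation, and the −log10 of a p-value and, as its score, of a q-value. Read numbers are not given in the sources used here, so the depth behind a peak is unknown.

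Peaks of the 5 mm10 lists were merged into sites where they overlapped by at least 1 bp, genome-wide. Gene positions are those of GENCODE M21, with the APPRIS principal transcript for the start of each gene, and sequence is that of GRCm38. For the motif model, CTCF replicate 2 supplied 2000 peaks, those ranking highest once 100 had been set aside, from autosomes without chromosome 6, and its scores at 48466 flanking sequences set the threshold. The strand was taken as that on which the motif is richer in G than in C, and all 3 CTCF sites of region CS38-40, which the study describes as sharing 1 orientation, read on the same strand. Merging and motif learning were checked on simulated data. Software was Python 3.11.15 with numpy 2.4.6, pandas 2.3.3, pysam 0.24.0 and matplotlib 3.10.9, and samtools 1.23.1.

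Peaks are not replicates, and no test between conditions is possible with 1 wild-type list, so counts are given beside the same count over the genome. The genes named are all 10 members and every gene that holds or neighbours a site, and all sites were described. The members and lists were chosen with earlier results of these data known.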

Additional observations from a re-analysis of the deposited data

How the results depend on the processing

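Most counts stayed within 1.5 times their value under the alternatives, which were stricter q-values, leaving out a replicate, lists mapped to the genome with the insertion, a window of 100 kb, other definitions of overlap and other motif settings. With a −log10 q-value of at least 5, the CTCF sites with a plus strand motif became 1. At 10, CTCF sites became 5, RAD21 sites in TgN(38-40) limbs 2, CTCF sites with RAD21 in TgN(38-40) limbs 1, those with RAD21 in wild-type limbs 3, those with a plus strand motif 0 and those called in both replicates 4. In the window of 100 kb, 1 plus strand motif was left. Leaving out replicates 1 and 2 in turn gave 5 and 0 RAD21 sites in TgN(38-40) limbs, 3 and 0 CTCF sites with RAD21 there, and 2 and 1 plus strand motifs at CTCF sites, as only CTCF summits of the remaining replicate were then searched. With 1 replicate left out, sites called in both have no value.

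Chosen after seeing the data were start codons in place of transcript starts, which also gave 5 members with a CTCF site, with Hoxa9 in place of Hoxa3, and sites merged over the CTCF lists alone, which gave 10 CTCF sites. Ranking by −log10 p in place of fold moved the median percentile of all peaks of the window to 51.9, against 52.2, and single percentiles by at most 15.5. In CTCF replicate 1, that of left flank became 34.5, against 45.0 by fold, that of Hoxa11-Hoxa13 27.8, against 16.1, that of Hoxa10-Hoxa11 83.2, against 69.4, and that of Hoxa7-Hoxa9 75.8, against 60.3. Hoxa5-Hoxa6, at 89.5 against 79.7, then stood above Hoxa6-Hoxa7, at 86.3 against 84.3.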
